A study of Homo sapiens with 2 samples.

Results

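The messages described here encode the nuclear subunits of oxidative phosphorylation, the machinery with which mitochondria turn the energy of food into ATP. They were taken by symbol: every protein-coding gene ID in both count files whose symbol names a subunit of complexes I to V, cytochrome c1 (CYC1), cytochrome c (CYCS) or the mitochondrial acyl carrier protein (NDUFAB1). Of 57820 gene IDs, 92 met this rule, namely 37 of complex I, 4 of complex II, 10 of complex III, 19 of complex IV, 19 of complex V, CYCS, and 2 readthrough entries that join a subunit gene to its neighbour. NDUFA4 and its paralog NDUFA4L2 were counted with complex IV, because NDUFA4 is a subunit of cytochrome c oxidase despite its name. DMAC2L, once called ATP5S, was not taken because its current symbol falls outside the rule.

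The data are 1 mRNA library from HEK293T cells given control siRNA and 1 from HEK293T cells given SRα siRNA. HEK293T is a transformed human embryonic kidney line that carries the SV40 large T antigen. SRα is the subunit of the signal recognition particle (SRP) receptor that docks ribosomes making secretory and membrane proteins at the endoplasmic reticulum. The comparison asks how messages differ when cells are depleted of SRα. With 1 library per group there is no replicate check and no test between conditions, so every difference below is one between 2 libraries, and the siRNA cannot be told apart from any other difference between them. Each ratio carries a 95% exact binomial interval that covers counting error only.

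In oxidative phosphorylation, electrons pass from NADH (complex I) and succinate (complex II) through complex III and cytochrome c to complex IV, which reduces oxygen, and complex V makes ATP from the proton gradient this builds. Complex II is wholly nuclear-encoded, while the other complexes combine nuclear subunits with some made inside the mitochondrion. The nuclear subunits are made in the cytosol and imported into the organelle by translocases of its own membranes, and many of their genes are known targets of the factors NRF1, GABPA (an ETS factor) and YY1.

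The libraries held 2445200 (control siRNA) and 3896721 (SRα siRNA) reads in genes, in 16001 and 17081 genes. SRPRA, the gene of SRα, had 507 and 449 reads, which is 205 and 117 CPM (counts after scaling to a common library size), a log2 ratio of -0.81 (-0.998 to -0.63). Paired values below give the control siRNA library first and the SRα siRNA library second, and ratios are SRα siRNA over control siRNA. All 7 markers of the HEK293 lineage that the tables matched by symbol were measured, at a summed 489 and 584 CPM. Their summed log2 ratio was 0.26 (0.15 to 0.36), and single markers ran from -0.45 to 1.82. Of the blood and endothelial markers matched, 4 of 4 and 2 of 2 were at 0. Markers of liver, muscle and fibroblasts summed to at most 3.64 CPM per list in either library. In bulk RNA, fewer cells with a message and less of that message per cell cannot be told apart.

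Promoter windows from RefSeq (GRCh38.p14, 250 bases before to 50 bases after the start) were matched by symbol for 71 of the 90 members that are not readthrough entries. The NRF1 motif, 10 letters with any base at the sixth, was searched on both strands and occurred in 17 of 71 members (23.9%), against 14.0% of 9428 measured protein-coding genes and 5.78% of all 35116 windows. The ETS letters CCGGAAG occurred in 21 (29.6%, against 23.0% and 10.3%). The YY1 motif, also of 10 letters, occurred in 8 (11.3%, against 3.47% and 1.20%). At least 1 of the 3 was present in 39 of 71 members (54.9%, against 35.7% and 15.7%), and 7 members held at least 2. A match describes letters in this window and is not evidence of binding.

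Of those 7 members, 3 are printed because together they show each pairing of the motifs, and each comes from another complex. The stretch runs from 230 bases before the start to 30 bases from it, 5′ to 3′ on the gene's strand, with the matched letters in capitals, which show the NRF1 and YY1 motifs on one strand or the other. ATP5ME, subunit e of complex V (chr4:674247-674506, minus strand), holds NRF1 and ETS letters. SDHB, the iron-sulfur subunit of complex II (chr1:17054003-17054262, minus strand), holds ETS and YY1 letters. NDUFA9, an accessory subunit of complex I (chr12:4648884-4649143, plus strand), holds NRF1 and YY1 letters.
ATP5ME: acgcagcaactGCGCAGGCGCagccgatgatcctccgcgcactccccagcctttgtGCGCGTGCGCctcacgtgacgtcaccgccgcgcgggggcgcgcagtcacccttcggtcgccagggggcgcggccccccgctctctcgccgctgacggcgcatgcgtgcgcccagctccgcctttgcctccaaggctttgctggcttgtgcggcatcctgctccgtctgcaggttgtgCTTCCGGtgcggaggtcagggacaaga
SDHB: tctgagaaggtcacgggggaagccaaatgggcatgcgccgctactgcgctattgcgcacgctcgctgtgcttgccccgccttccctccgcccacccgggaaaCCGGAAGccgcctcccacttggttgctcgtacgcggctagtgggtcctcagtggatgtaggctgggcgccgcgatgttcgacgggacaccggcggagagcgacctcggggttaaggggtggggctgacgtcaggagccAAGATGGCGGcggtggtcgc
NDUFA9: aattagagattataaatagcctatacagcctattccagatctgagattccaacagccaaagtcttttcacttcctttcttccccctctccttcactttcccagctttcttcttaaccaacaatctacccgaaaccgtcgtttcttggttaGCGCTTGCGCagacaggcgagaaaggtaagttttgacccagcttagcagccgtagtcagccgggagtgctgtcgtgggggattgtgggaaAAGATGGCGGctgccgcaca

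These 3 genes did not share a direction. ATP5ME stood at 114 and 127 CPM, a log2 ratio of 0.16 (-0.053 to 0.38). SDHB stood at 227 and 226 CPM (-0.0054, -0.16 to 0.15), and NDUFA9 at 40.0 and 34.6 CPM (-0.21, -0.596 to 0.18). All 3 intervals hold equal levels. Over the matched and measured members, the 38 with any of the motifs had a median log2 ratio of 0.0029 and the 28 without had 0.012. The 16 with NRF1 letters had a median of -0.067, against 0.013 for 50 without. For ETS letters the medians were 0.030 (21 members) and 0.0073 (45), and for YY1 letters 0.0049 (8) and 0.0097 (58).

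As a module, the subunit messages took nearly the same share of each library. Of the 90 subunits, 82 averaged 1 CPM or more and were called measured. These 82 held 44652 and 70733 reads, which is 1.83% and 1.82% of gene reads. The log2 ratio of their summed reads was 0.028 (0.011 to 0.045), and it was -0.0086 when the libraries were scaled by total reads alone, so its sign rests on the scaling. That scaling moves every log2 ratio by -0.036, so each positive ratio smaller than this step, among them those of complexes I, III and V and of the mitochondrially encoded subunits, changes sign with it. The median member had a log2 ratio of 0.015, beside 0.0079 for all 12747 measured genes. At 50 CPM or more the median was 0.015 for the 70 members and 0.036 for all 4007 genes. The summed ratios at that level were 0.029 (0.012 to 0.046) for members and 0.043 (0.041 to 0.046) for all genes. The members' value was the lower of each of these pairs at 50 CPM or more. Of the measured members, 46 were higher and 36 lower in the SRα siRNA library, beside 6554 and 6193 of all measured genes. At 50 CPM or more, 40 members were higher and 30 lower, beside 2399 and 1608 of all genes at that level. These splits of all genes are the background for the counts of higher and lower genes given below.

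The spread of the members was also described. Among the 70 members of at least 50 CPM, the standard deviation of the log2 ratio was 0.117, beside 0.152 for all 4007 genes at that level. These sets were not matched for read depth, so the lower value does not show that members lay closer together than other genes. The median half-width of a member's counting interval was 0.166. For 64 of the 70 the interval held the ratio of the module's summed reads. Of all 4007 genes at that level, 83.4% had an interval that held equal, a related but not identical measure. Most genes pass with intervals this wide, so the 64 alone do not show that members lay unusually close. Across the measured members, log levels in the libraries had a Pearson correlation of 0.997, a description of genes within the same pair of libraries.

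**Figure D1:**
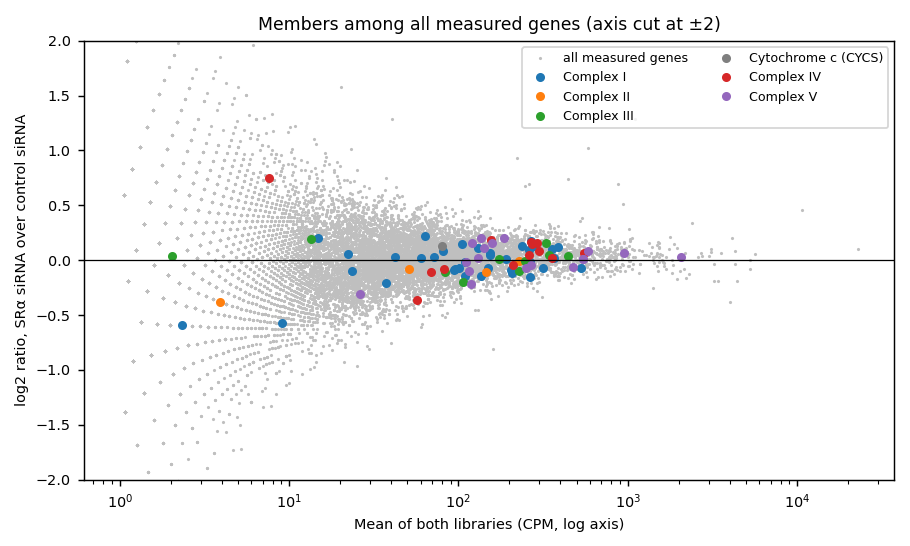
Log2 ratio of each measured gene (SRα siRNA over control siRNA, vertical axis) against its mean level in CPM (log axis), with the subunit genes marked over all measured genes. The 70 members of at least 50 CPM lie between -0.36 and 0.22, and 84 measured genes beyond the axis limits of log2 2 are not drawn.

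Few members differed by a fixed size, set at 25% higher or, the same step on the log scale, 20% lower. Among the 82 measured members, 1 was at least 25% higher, where 14.5% of all measured genes were, and 4 were at least 20% lower, where 15.1% were. The 1 higher member was COX4I2, the oxygen-responsive form of complex IV subunit 4, with 14 and 37 reads (5.65 and 9.62 CPM). Its log2 ratio of 0.75 had an interval of -0.16 to 1.77. The 4 lower members were NDUFV2, NDUFB8, SDHD and COX6A1, and the first 3 of these had at most 28 reads in either library. At 50 CPM or more, 0 of 70 members were 25% higher and 1, COX6A1, was 20% lower, beside 2.27% and 1.42% of all genes at that level.

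By counting interval, 8 members lay above equal (NDUFAB1, NDUFS6, UQCRB, COX5B, COX7A2, NDUFA4, ATP5PD and ATP5PO), where 5.46% of measured genes did. Below equal lay 3, among them COX6A1 and ATP5F1E, where 3.39% did. All 11 have at least 50 CPM, where the shares of all genes were 11.7% and 4.89%, so that 8 and 3 of 70 are near the background. With scaling by total reads, 0 members lay above equal.

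**Figure D2:**
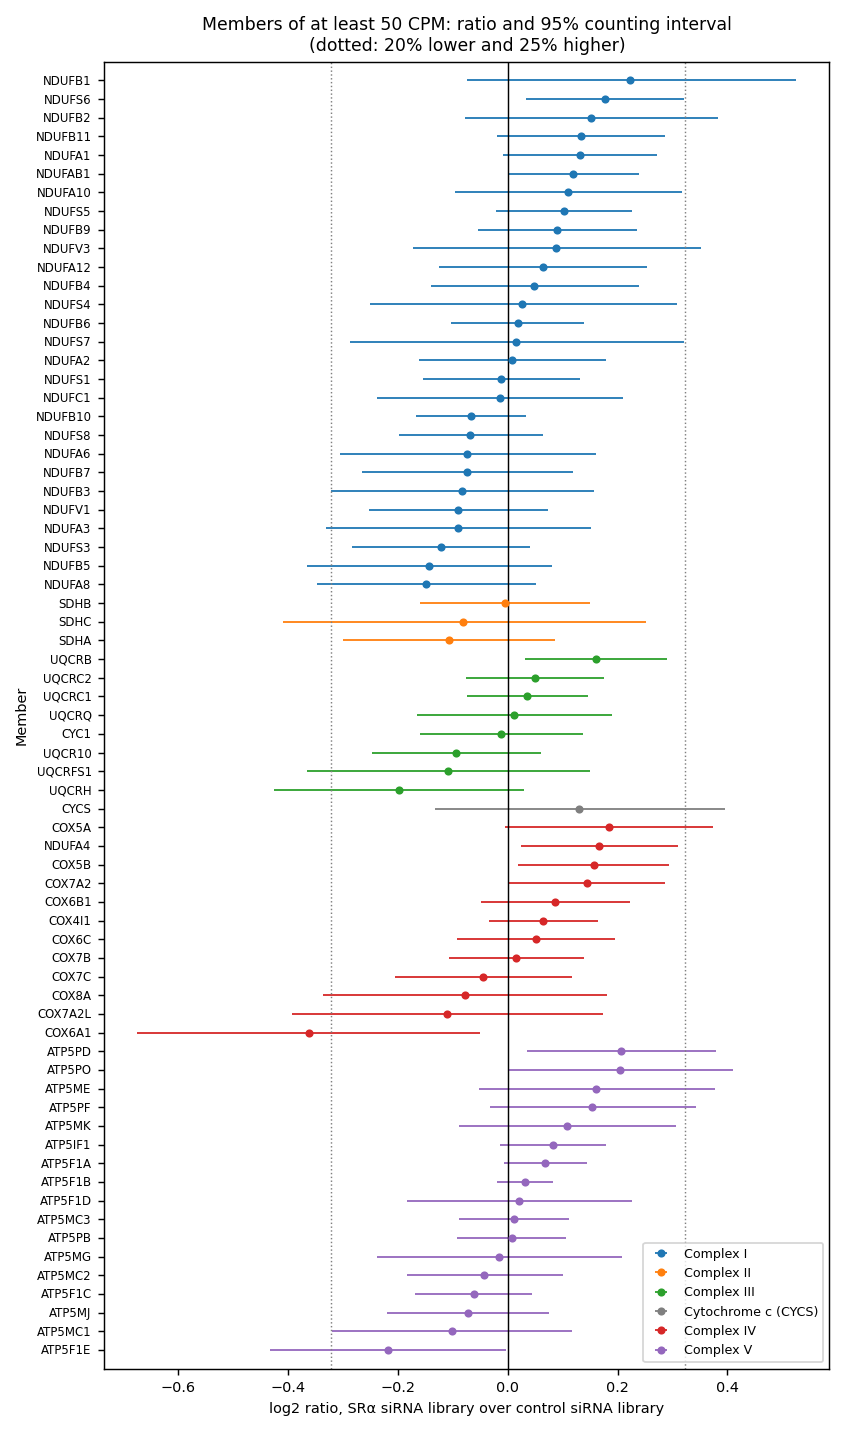
Log2 ratio (SRα siRNA over control siRNA, horizontal axis) of 69 of the 70 members of at least 50 CPM, coloured by complex, with 95% counting intervals as bars and dotted lines at 20% lower and 25% higher. COX6A1 is the 1 point beyond a dotted line, and 8 of the intervals drawn lie above 0 and 2 below.

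At the high end of the members of at least 50 CPM stood 6 genes. NDUFB1, an accessory subunit in the membrane arm of complex I, had 58.6 and 68.4 CPM (log2 ratio 0.22, -0.075 to 0.53). ATP5PD and ATP5PO, parts of the peripheral stalk that holds the complex V head still, had 174 and 200 CPM (0.21, 0.034 to 0.38) and 126 and 145 CPM (0.21, 0.0030 to 0.41). COX5A, a matrix-side subunit of complex IV, had 146 and 166 CPM (0.18, -0.0043 to 0.37). NDUFS6, a zinc-binding accessory subunit of complex I, had 252 and 285 CPM (0.18, 0.034 to 0.32), and NDUFA4 had 253 and 284 CPM (0.17, 0.024 to 0.31). None of these 6 was as much as 25% higher.

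At the low end, COX6A1, the widely expressed form of complex IV subunit 6A, had 159 and 192 reads, or 64.2 and 49.9 CPM (-0.36, -0.67 to -0.051). ATP5F1E, the epsilon subunit of the complex V central stalk, had 128 and 110 CPM (-0.22, -0.43 to -0.0036). UQCRH, the hinge protein of complex III, had 113 and 98.5 CPM (-0.20, -0.43 to 0.029). NDUFA8 had 144 and 130 CPM (-0.15, -0.35 to 0.052), and NDUFB5 had 115 and 104 CPM (-0.14, -0.37 to 0.081). Of the genes just given, the intervals of COX6A1 and ATP5F1E lay below equal and the others held it.

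Some members are genes whose reads are hard to assign, and they lay on both sides of equal. Sharing was measured over the principal coding transcript of each gene, not over all its exons. NDUFV2 shares 82.9% of these bases with another gene on the same strand and 26.2% of its 50-base windows with genes elsewhere. NDUFB8 shares 71.7% of its bases with a same-strand gene. COX6A1 shares 34.6% of its windows with a pseudogene (COX6A1P2) and 30.6% of its bases with a same-strand gene, and UQCRH shares 29.4% of its windows with UQCRHL. The 5 members with over 20% of windows elsewhere (NDUFV2, SDHA, SDHD, COX6A1 and UQCRH) were all lower, at a summed log2 ratio of -0.19 (-0.32 to -0.061). Of the 9 measured members with over 20% of bases under a same-strand gene, 3 were higher (NDUFA11 at 67.0% shared with a log2 ratio of 0.21, ATP5PO at 70.3% with 0.21 and NDUFA13 at 44.1% with 0.030) and 6 lower, and their summed ratio was -0.030 (-0.15 to 0.090). The 71 measured members with neither kind of sharing over 20% had a median of 0.020, and 0 of them were 20% lower. The part of read assignment in these ratios was not tested.

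Complex I, which takes electrons from NADH, had 36 of 37 members measured, with 19 higher and 17 lower. Its summed reads had a log2 ratio of 0.013 (-0.018 to 0.043) and its median was 0.012. NDUFS5 and NDUFB10 were its most abundant messages per length, at 629 and 676 RPKM (CPM per kilobase of exon) for NDUFS5 and 509 and 486 RPKM for NDUFB10. NDUFAB1, the acyl carrier protein that also serves mitochondrial fatty acid synthesis, had 373 and 405 CPM (0.12, 0.0014 to 0.24). NDUFA1, a small membrane-arm subunit encoded on the X chromosome, had 269 and 294 CPM (0.13, -0.0079 to 0.27). Among the 29 measured accessory messages the ratios ran from -0.57 (NDUFB8) to 0.22 (NDUFB1). NDUFA7 was not measured, with 1 and 0 reads, and 75.9% of its bases lie under a same-strand gene.

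Within complex I, the core subunits, which carry the flavin and iron-sulfur centres and the quinone site, stood lower than the accessory subunits. Of the 7 nuclear core messages, 6 were lower. The summed reads of the 7 had a log2 ratio of -0.083 (-0.15 to -0.019). With the GC trend removed this was -0.056, with an interval that held 0 (-0.12 to 0.0080). NDUFV1, which binds NADH and the flavin, had 212 and 199 CPM (-0.090, -0.25 to 0.073). NDUFS1, the largest iron-sulfur subunit, had 267 and 265 CPM (-0.012, -0.15 to 0.13), and NDUFS3 had 215 and 198 CPM (-0.12, -0.28 to 0.041). NDUFS7 was the 1 that was not lower, at 60.2 and 60.8 CPM (0.015). The 29 accessory messages had 18 higher and 11 lower and a summed ratio of 0.040 (0.0058 to 0.074), which became 0.0035 (-0.031 to 0.038) with scaling by total reads. The difference, core minus accessory, was -0.12 (-0.19 to -0.051), in which the scaling of the libraries cancels. It was -0.096 (-0.17 to -0.025) with the trend on GC content removed.

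Complex II, succinate dehydrogenase, links the tricarboxylic acid cycle to the chain. All 4 messages were lower, each with an interval that holds equal. The flavoprotein SDHA had 151 and 140 CPM (-0.11, -0.301 to 0.087), and the membrane anchor SDHC had 52.5 and 49.6 CPM (-0.081, -0.41 to 0.25). The other anchor, SDHD, had 11 and 13 reads (4.44 and 3.38 CPM, -0.38, -1.67 to 0.91). With SDHB, given above, the summed ratio was -0.053 (-0.16 to 0.060).

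Complex III passes electrons from ubiquinol to cytochrome c, and its 10 messages had 6 higher and 4 lower with a summed ratio of 0.018 (-0.034 to 0.070). UQCR10 and UQCRC1 were its most abundant per length, at 242 and 227 RPKM for UQCR10 and 136 and 140 RPKM for UQCRC1. CYC1, the haem-bearing subunit that meets cytochrome c, had 250 and 248 CPM (-0.012, -0.16 to 0.14). UQCRB, a small subunit near the quinone site, had 313 and 350 CPM (0.16, 0.032 to 0.29). UQCRHL, a second gene for the hinge protein, took 9.97% and 12.7% of the reads that UQCRH and UQCRHL hold together. CYCS, the mobile carrier itself, had 190 and 323 reads, 76.7 and 83.9 CPM (0.13, -0.13 to 0.396).

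Complex IV, cytochrome c oxidase, had 13 of 19 members measured, 9 higher and 4 lower, with a summed ratio of 0.069 (0.026 to 0.11). With scaling by total reads it was 0.033, with an interval that holds 0 (-0.010 to 0.076). COX6B1 and COX5B led per length, at 309 and 328 RPKM for COX6B1 and 191 and 213 RPKM for COX5B. COX4I1, the widely expressed subunit 4, had 536 and 561 CPM (0.065, -0.035 to 0.16). COX7B had 357 and 360 CPM (0.016, -0.11 to 0.14), and COX8A had 84.8 and 80.3 CPM (-0.079, -0.34 to 0.18). Set against complex I, the summed ratio of complex IV was higher by 0.057 (0.0043 to 0.11). That interval held 0 once the GC trend was removed (0.025, -0.027 to 0.078).

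The unmeasured complex IV members are forms made in few tissues. COX6A2, COX7A1 (heart and muscle), COX6B2, COX7B2 and COX8C (testis) had 0 reads in both libraries, which allows levels of up to 1.21 and 0.780 CPM. NDUFA4L2, known as a hypoxia-responsive gene, had 1 and 3 reads beside 626 and 1092 of NDUFA4. COX4I2 made up 1.04% (0.571 to 1.74, exact interval) of COX4 reads under control siRNA and 1.69% (1.19 to 2.32) under SRα siRNA, and these intervals overlap. COX7A2L, which acts in supercomplex assembly, took 21.8% and 18.9% of the reads of the COX7A family, and COX7A2 took the rest (258 and 285 CPM).

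Complex V, the ATP synthase, held the most-read member, ATP5F1B, the catalytic beta subunit of the head, at 2048 and 2093 CPM (0.031, -0.020 to 0.082). Of 18 measured members, 11 were higher and 7 lower, and the summed ratio was 0.030 (0.0024 to 0.058). ATP5F1A, the alpha subunit that alternates with beta in the head, had 930 and 975.1 CPM (0.068, -0.0070 to 0.14). The sign of the summed ratio of complex V turned with scaling by total reads (-0.0063). ATP5IF1, the inhibitor that blocks reverse rotation of the enzyme, had 565 and 599 CPM (0.082, -0.014 to 0.18). ATP5MGL, a paralog of ATP5MG, had 0 reads.

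By part of the machine, the 4 peripheral stalk messages (ATP5PB, ATP5PD, ATP5PF and ATP5PO) were all higher, with a summed ratio of 0.092 (0.020 to 0.16). It became 0.056 (-0.017 to 0.128) with scaling by total reads and 0.060 (-0.012 to 0.13) with the GC trend removed. ATP5PB, the longest stalk component, had 546 and 549 CPM (0.0073, -0.092 to 0.11), and ATP5PF had 149 and 166 CPM (0.15, -0.033 to 0.34). The difference of the 4 from the other complex V messages was 0.073, and its interval held 0 (-0.0054 to 0.15). ATP5PO shares 70.3% of its bases with a same-strand gene. In the central stalk, the gamma subunit ATP5F1C had 485 and 464 CPM (-0.062, -0.17 to 0.045). The central stalk as a whole had a summed ratio of -0.073 (-0.16 to 0.013) and the 2 head subunits 0.043 (0.00060 to 0.085). The 3 genes of subunit c, which encode the same mature ring protein, had -0.018 (-0.094 to 0.058). Their mix was alike in both libraries: ATP5MC3 gave 57.9% and 59.1% of subunit c reads, ATP5MC2 29.4% and 28.9%, and ATP5MC1 12.8% and 12.1%.

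**Figure D3:**
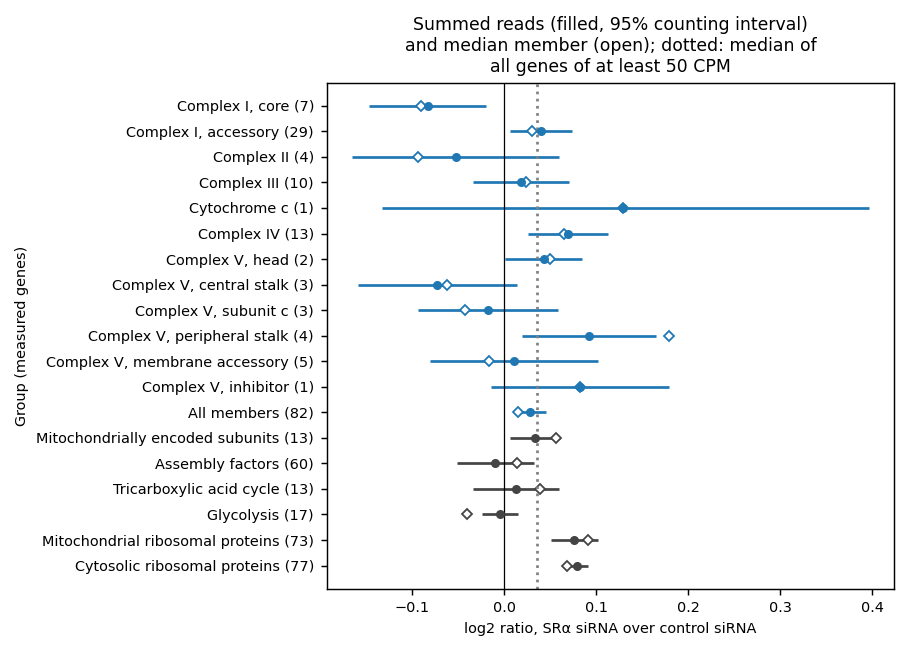
Log2 ratio (SRα siRNA over control siRNA, horizontal axis) of summed reads with 95% counting intervals (filled) and of the median member (open), for all members and the complexes or their functional parts (blue) and for related gene lists (dark grey); the dotted line is the median of all genes of at least 50 CPM. The summed ratios of the complex I core (-0.083) and the peripheral stalk (0.092) lie on opposite sides of 0. Both intervals held 0 once the GC trend was removed, which is not drawn.

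By level per length complex II had the lowest median, while the medians of the other complexes lay closer together. The median member had 107 and 117 RPKM in complex IV, 74.0 and 75.8 in complex V, 72.4 and 68.3 in complex III, 59.3 and 58.7 in complex I, and 10.8 and 10.1 in complex II. Within complex V the control siRNA levels ran from 12.8 RPKM (ATP5MF) to 882 RPKM (ATP5F1B), so neighbouring complexes overlap widely. Complexes V and III differed by less in the control siRNA library than complex III did between libraries. The order depends on the length used: with the principal transcript in place of all exons, complex V came first at 270 and 307 RPKM. Complex II was last by each length, but its median rests on 4 genes. Of these, SDHB stood at 92.2 and 91.8 RPKM, above the medians of complexes I, III and V. SDHC was divided by 14160 bases of exon, or 13566 by principal transcript. SDHD had 11 and 13 reads, and SDHA and SDHD share 22.3% and 20.7% of their 50-base windows with genes elsewhere.

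**Figure D4:**
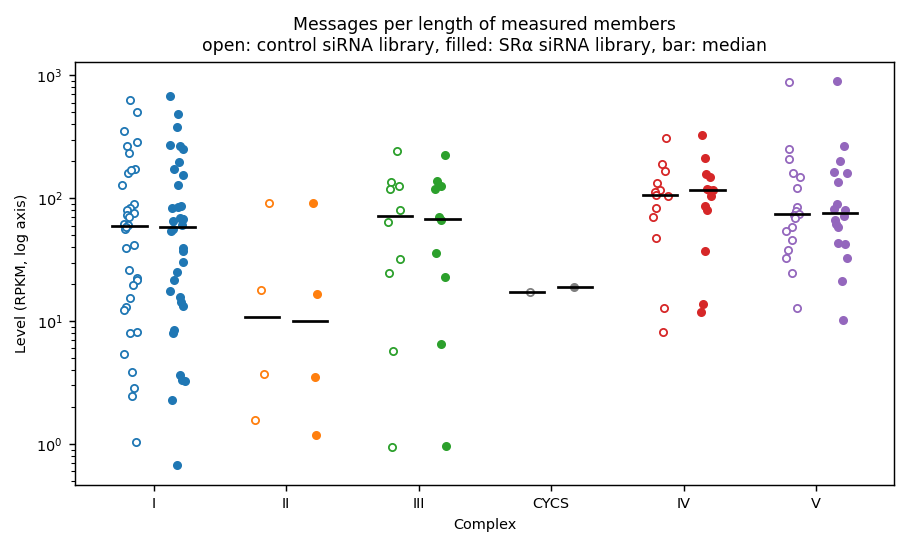
Level of each measured subunit gene in RPKM (log axis) by complex and for CYCS, open for control siRNA and filled for SRα siRNA, with the median as a bar. Spread within a complex is far wider than the distance between libraries, and the median of complex II (10.8 and 10.1 RPKM) is the lowest.

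The 13 subunits encoded by the mitochondrial genome, which join the nuclear subunits in complexes I, III, IV and V, gave a like value. Their summed ratio was 0.033 (0.0065 to 0.060), with 9 higher and 4 lower, and the nuclear subunits differed from them by -0.0057 (-0.038 to 0.026). MT-ND1 was the lowest, at 224 and 197 CPM (-0.19, -0.35 to -0.025), and MT-ND6 the highest, at 112 and 121 CPM (0.11, -0.10 to 0.33).

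Assembly factors, the proteins that build the complexes without staying in them, were all measured (60 of 60), with 31 higher and 29 lower and a median of 0.014. At least 25% higher were 4 of 60, beside 14.5% of all measured genes, and 2 of 60 were at least 20% lower, beside 15.1%. Among all genes of at least 50 CPM the shares were 2.27% and 1.42%. BCS1L, which inserts the Rieske protein into complex III, had 113 and 94.9 CPM (-0.25, -0.48 to -0.024). Other ends of these lists at 20 CPM or more were TMEM186 (-0.42) and NUBPL (0.29) for complex I. For complex IV they were SMIM20 (-0.26) and CMC1 (0.35), and for complex III UQCC1 (0.23). For complex V they were TMEM242 (-0.13) and ATPAF1 (0.062). SDHAF3 (-0.12) was the 1 factor of complex II at that level. The intervals of these other ends all held equal.

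Of 14 regulators of mitochondrial biogenesis, 7 were higher and 7 lower, with a median of 0.0042. Their summed ratio was 0.096 (0.036 to 0.157), and 0.060 (-0.00076 to 0.12) with scaling by total reads. MYC held 1311 of the 3528 reads in this sum under control siRNA. None of the 14 was 25% higher or 20% lower, beside 14.5% and 15.1% of all measured genes. Among all genes of at least 50 CPM these shares were 2.27% and 1.42%. NRF1 itself had 33.5 and 40.5 CPM (0.27, -0.12 to 0.68), GABPA 33.1 and 27.3 CPM (-0.28, -0.71 to 0.16) and YY1 181 and 182 CPM (0.0089, -0.16 to 0.18). POLRMT, the mitochondrial RNA polymerase, was the highest at 0.30 (-0.0032 to 0.62). MYC, with 529 and 597 CPM (0.17, 0.076 to 0.27), was the 1 of 14 whose interval lay above equal. This stands beside 5.46% of all measured genes and 11.7% of those of at least 50 CPM.

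Messages of the mitochondrial ribosome, which translates the mitochondrial subunits, stood slightly above those of the nuclear subunits. Their 73 measured members had a median of 0.091 and a summed ratio of 0.076 (0.051 to 0.101), and the nuclear subunits lay below them by 0.048 on the log2 scale (difference -0.048, -0.079 to -0.018; -0.057 with the GC trend removed). At 20 CPM or more MRPS18C was the lowest (-0.25) and MRPS33 the highest (0.36, 0.13 to 0.60). All 73 measured ran from -1.11 to 0.36. Glycolytic enzymes, the other route to ATP, had a median of -0.041 and a summed ratio of -0.0047 (-0.024 to 0.015). The nuclear subunits lay above them by 0.033 (0.0066 to 0.059), and by 0.015 (-0.011 to 0.041) with the GC trend removed. At 20 CPM or more the glycolytic genes ran from ALDOC (-0.29) to PKM, the pyruvate kinase (0.12, 0.061 to 0.18). Tricarboxylic acid cycle enzymes had a median of 0.039, with 8 of 13 higher, from IDH3G (-0.18) to SUCLG2 (0.32). Nucleotide and phosphate carriers, which exchange ATP across the membranes, had a median of 0.054. At 20 CPM or more they ran from SLC25A4 (-0.035) to VDAC1 (0.17), and all measured carriers ran from -0.43 to 0.73. Factors of supercomplexes and other quinone inputs had a median of -0.020, from ETFB (-0.25) to ETFDH (0.25). Cytosolic ribosomal proteins, a large set of short and abundant messages, had a median of 0.068 and a summed ratio of 0.079 (0.066 to 0.091). At 20 CPM or more they ran from RPS27A (-0.51) to RPL21 (0.57), both members of families with many pseudogenes. All measured genes of this list ran from -0.51 to 0.59.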

How the data were processed

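TRIzol extraction and TruSeq Stranded mRNA libraries were used, per the labels' protocols. The deposited files hold whole-number read counts per gene ID, made by the authors with cutadapt and STAR 2.5.2b on hg19, per the submitters' processing notes. Which program counted the reads, whether it used strand and on which annotation was not given in the sources used here, so reads of overlapping or antisense genes cannot be told apart. Summary lines naming no gene (82.0% and 79.3% of entries, mostly alignments that were not unique) were left out.

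A gene name table gave symbols to 51996 IDs and GENCODE 29 to a further 342, leaving 5482 unnamed. Libraries were scaled by TMM (edgeR 4.0.16, R 4.3.3) over all genes. Log2 ratios of CPM used a depth-scaled prior count of 0.5, with a 95% Clopper-Pearson (exact binomial) interval computed from both counts given their sum. The libraries have no molecular identifiers, so intervals and limits of 0 reads (3 reads) cover counting error only. Lengths, GC content and sharing with other genes came from GENCODE 29 (GRCh38) by gene ID, so they only approximate the authors' annotation. A GC trend was removed by lowess (fraction 0.3). The log2 ratio and its interval were tested on simulated Poisson counts, a test that did not cover the other steps.

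Genes named with values are SRPRA, the 6 highest and 6 lowest members of at least 50 CPM, the 2 most abundant members of each complex, paralog pairs, complex II, CYCS, CYC1, ATP5IF1, and the ends of each other list at 20 CPM or more. Others (the remaining members past the fixed size or with an interval off equal, core and stalk subunits, the genes with printed promoters or shared bases, NRF1, YY1 and MYC) were named after their values were seen. The values of 1 member are not reported here, and it is not drawn among the single ratios. The members, the lists and the tests were chosen with earlier results of these data known. Alternatives covered scaling (including DESeq2 1.42.0 size factors), filter, prior count, gene length, GC content and members that share bases.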

Additional observations from a re-analysis of the deposited data

How the results depend on the processing

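No paired analysis was possible because each group has 1 library, and for the same reason none could be left out. Scaling by library totals moved every log2 ratio by -0.036, and totals without mitochondrially encoded and the 10 most-read genes moved it by -0.033. Under these the summed ratio of all members was -0.0086 and -0.0051, that of complex V -0.0063 and -0.0028, and that of complex I -0.024 and -0.020. Members with an interval above equal numbered 0 and 2 under these scalings, 5 with scaling on protein-coding genes and 5 with the GC trend removed, and those below equal numbered 5 with library totals. Members at least 25% higher numbered 2 with no filter. Those 20% lower numbered 2 at 5 CPM or more, and 0 without members sharing over 20% of bases, an alternative chosen after seeing the data. Median RPKM (control siRNA, then SRα siRNA library) by longest transcript was 89.0 and 91.1 for complex I, 27.0 and 25.1 for II, 132 and 134 for III, 136 and 142 for IV, and 132 and 138 for V. By principal transcript, also chosen after seeing the data, it was 146 and 152 for I, 33.4 and 31.1 for II, 158 and 148 for III, 235 and 243 for IV, and 270 and 307 for V. The other 152 values of the main results, and all 852 of single members and list medians, stayed within the counting interval or within 1.5 times the count. A list's interval was taken from its median gene. The scaling steps are small beside most of these intervals, so this count cannot show that the values are stable. With library totals the median of all members went from 0.015 to -0.021, and that of complex I from 0.012 to -0.025. The summed ratio of complex IV was 0.033 and 0.036 under the 2 totals, where its own interval held 0. Of 189 summed ratios of parts of complexes and of other lists, 179 stayed within their intervals. With library totals the mitochondrially encoded subunits stood at -0.0030, complex I accessory subunits at 0.0035, glycolysis at -0.041, and mitochondrial and cytosolic ribosomal proteins at 0.040 and 0.042; with the other totals the encoded subunits stood at 0.00059, glycolysis at -0.038 and the ribosomal lists at 0.043 and 0.046, and with the GC trend removed the encoded subunits stood at 0.0020. These sums were added after seeing the data. Depth limits single members: the median half-width of 0.166 at 50 CPM or more hides smaller differences.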
